A study of Mus musculus with 20 samples.

Results

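The 6 actin genes of the mouse, Acta1, Acta2, Actc1, Actb, Actg1 and Actg2, were followed across mouse heart ventricle samples measured on Affymetrix arrays. All probe sets linked to these genes alone were taken, 8 in all, out of 8251 genes that had a probe set of their own on the array. The family was chosen by the differences of Acta1 and Acta2 between these groups, which were already known, so the values of both genes are described and carry no test. Of the 20 arrays, 19 carried a group in their labels. FVBN control (n = 2) and FVBN + Doxy (n = 4) were labelled with the strain name FVBN, without and with Doxy, taken here as doxycycline. The tTA (n = 8) and tTA + Doxy (n = 5) groups expressed the tetracycline transactivator tTA in the heart on the FVBN background, and the keywords of the labels name the alpha MHC promoter. Promoter activity of alpha MHC (Myh6) is known from cardiomyocytes. Age, sex, the dose and duration of Doxy, the transgenic line, pooling, and whether each array came from a separate animal are not stated in the labels, so a p-value here speaks of the spread among arrays, which may be technical.

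Actin is the protein of the thin filament, on which myosin pulls, and of the cytoskeleton. Actc1 encodes cardiac alpha-actin, the main sarcomeric actin of the adult ventricle, and Acta1 encodes skeletal alpha-actin, which the rodent heart also makes and which is a classical marker of pressure overload and of the fetal programme. Acta2 encodes the alpha-actin of vascular smooth muscle and of myofibroblasts, and Actg2 that of visceral smooth muscle. Actb and Actg1 encode the cytoplasmic actins found in most cells. Serum response factor (SRF) and its coactivators control many actin promoters through the CArG box. The tTA protein binds tetracycline operator sequences, and doxycycline prevents that binding.

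Promoters of 4 members are shown because their genes share a known class of regulatory element while their intensities differed in opposite directions or did not pass a test. Each line gives the 250 bases before the annotated start in the GRCm38.p6 build of RefSeq, 5' to 3' on the minus strand, with CArG boxes in capitals, either exact or with 1 inner G or C. The regions are chr8:123894776-123895025 for Acta1, chr19:34255374-34255623 for Acta2, chr2:114052876-114053125 for Actc1 and chr11:120348496-120348745 for Actg1.
Acta1: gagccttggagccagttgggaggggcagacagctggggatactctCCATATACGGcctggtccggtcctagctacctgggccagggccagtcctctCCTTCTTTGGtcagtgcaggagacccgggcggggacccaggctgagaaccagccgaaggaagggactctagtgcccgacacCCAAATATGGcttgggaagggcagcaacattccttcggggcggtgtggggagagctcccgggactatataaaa
Acta2: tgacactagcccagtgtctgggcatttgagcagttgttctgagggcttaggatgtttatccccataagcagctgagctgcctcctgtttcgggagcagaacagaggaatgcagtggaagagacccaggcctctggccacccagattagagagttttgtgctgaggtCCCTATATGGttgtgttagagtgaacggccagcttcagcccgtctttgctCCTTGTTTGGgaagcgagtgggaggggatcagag
Actc1: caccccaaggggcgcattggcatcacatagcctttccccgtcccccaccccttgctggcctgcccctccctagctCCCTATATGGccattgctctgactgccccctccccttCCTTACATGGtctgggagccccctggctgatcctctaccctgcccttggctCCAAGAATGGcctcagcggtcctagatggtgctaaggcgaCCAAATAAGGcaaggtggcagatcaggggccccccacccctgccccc
Actg1: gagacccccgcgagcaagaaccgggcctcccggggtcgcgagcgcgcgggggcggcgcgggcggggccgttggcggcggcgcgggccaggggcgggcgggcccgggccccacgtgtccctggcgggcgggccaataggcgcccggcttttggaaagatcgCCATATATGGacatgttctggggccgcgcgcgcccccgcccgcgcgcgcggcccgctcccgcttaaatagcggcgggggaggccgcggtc
The Acta1 window held 1 exact CArG box, CCAAATATGG, from 73 to 64 bases before the start, and 2 matches with an inner G or C. The Acta2 window held 0 exact matches and 2 with an inner G or C, CCCTATATGG at 84 to 75 bases before the start and CCTTGTTTGG at 34 to 25. Actc1 held 1 exact match, CCAAATAAGG, at 47 to 38 bases, and 3 with an inner G or C. Actg1 held 1 exact match, CCATATATGG, at 90 to 81 bases. The search covered both strands. Of 32851 promoter windows of this length in the table, 1.47% held an exact match and 7.24% held one with an inner G or C. A match is a description of letters, and the arrays measured no binding. Actb and Actg2 are not in the table.

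Medians of the 20 arrays lay between 60.74 and 62.45 intensity units, and arrays of 1 group correlated at 0.9925 to 0.9981 over log2 values. Of the cardiomyocyte markers, Myh6 read 3708 to 4889 on the 19 arrays with a group. Levels differed within that list: Ryr2 read 383.7 to 837.2 and Actn2 46.16 to 54.67, under the array medians. FVBN control arrays were numbered 8177 and 8182, FVBN + Doxy 8337 to 8341, and tTA + Doxy 7399 to 7488. The tTA arrays were numbered 7288 to 7311, with 9310 and 9322 besides. The labels do not say what these numbers stand for. No block of numbers was shared between groups, so whatever the numbers follow cannot be told apart from the group. Arrays 9310 and 9322 stand apart from the other tTA arrays by their numbers. Values by array are deposited linear intensities, while differences and ratios come from quantile normalized log2 values, fitted in limma. A probe set's intensity depends on its probes, so no level is compared between genes.

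Acta1, skeletal alpha-actin, was higher in both tTA groups and was also higher with Doxy in FVBN. The intensities of the probe set 100381_at were 613.5 and 719.3 on the FVBN control arrays 8177 and 8182. With Doxy they were 1148, 1200, 925.3 and 1324 on arrays 8337, 8338, 8340 and 8341. In tTA the lowest was 1351 on array 7288, the median 2041 and the highest 3245 on array 7311. All tTA arrays lay above every FVBN array, and the FVBN + Doxy arrays lay between FVBN control and tTA. The tTA + Doxy arrays 7399, 7424, 7485, 7486 and 7488 read 1444, 2756, 2105, 1748 and 2234, within the tTA range, and none overlapped FVBN + Doxy. The lowest tTA value, 1351, was close to the highest FVBN + Doxy value, 1324. Of all tested probe sets, 12.7% did not overlap between tTA and FVBN control. That share was 9.73% between tTA + Doxy and FVBN + Doxy, and 23.4% between FVBN + Doxy and FVBN control.

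The Acta1 log2 difference was 1.68 ± 0.26 (SE) between tTA and FVBN control, and all 8 tTA arrays lay on the higher side. It was 0.80 ± 0.22 between tTA + Doxy and FVBN + Doxy (5 of 5 arrays), the comparison called under Doxy below, and 0.83 ± 0.29 between FVBN + Doxy and FVBN control (4 of 4 arrays). These comparisons share control arrays, and the values are set side by side with nothing read from their likeness. The difference between tTA + Doxy and tTA was -0.04 ± 0.19, with 2 of 5 arrays on the lower side and the groups overlapping. The interaction, the difference with Doxy in tTA less that in FVBN, was -0.87 ± 0.35. A covariate added to these fits, the log2 ratio between 2 beta-actin control probe sets (3' end over 5' end), left Acta1 at 1.19 ± 0.29 in tTA against FVBN control and at 0.49 in tTA + Doxy against FVBN + Doxy. The mean of that ratio was lower in both tTA groups than in both FVBN groups, with overlap at FVBN + Doxy array 8341, as given below. The part of the ratio in the Acta1 difference was not tested.

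**Figure D1:**
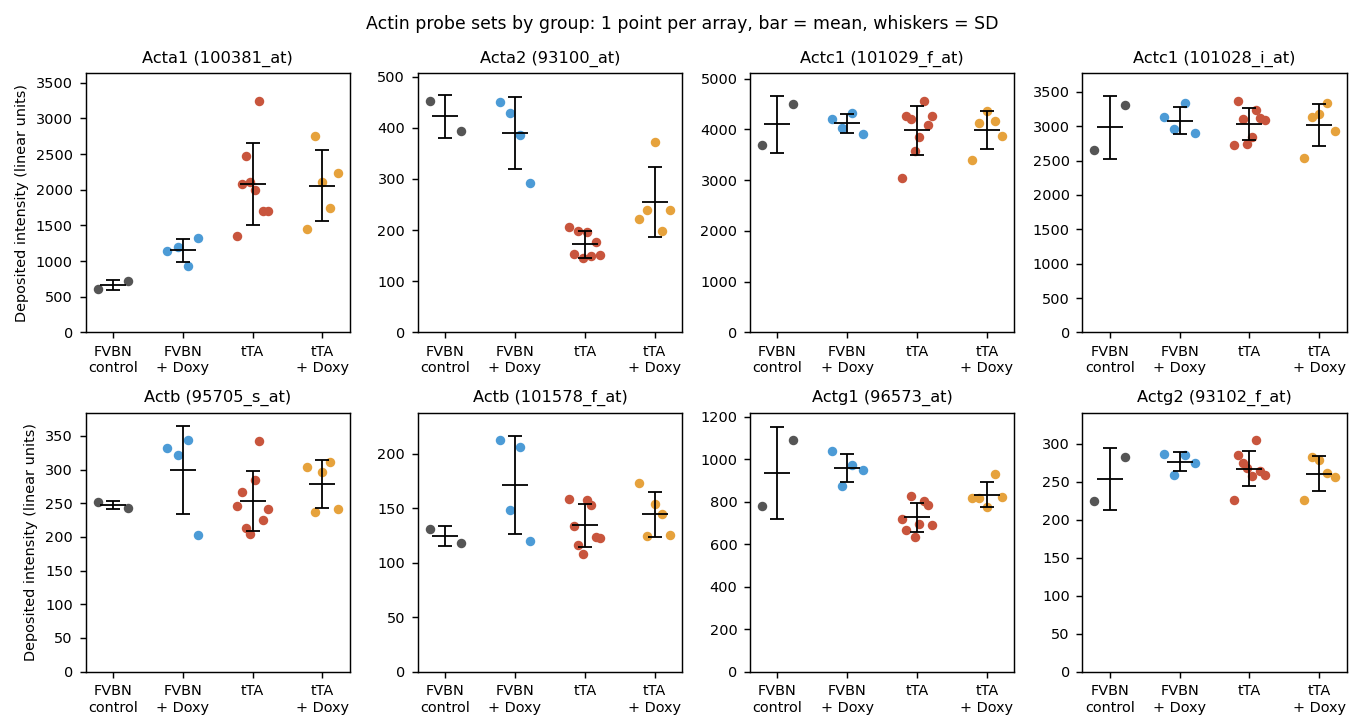
Deposited intensity (linear units) of the 8 actin probe sets in FVBN control (n = 2), FVBN + Doxy (n = 4), tTA (n = 8) and tTA + Doxy (n = 5). Points are arrays, bars are means and whiskers are SD; Acta1 sits at 1351 to 3245 on tTA arrays against 613.5 and 719.3 on FVBN control, while Acta2 sits at 145.8 to 206.6 against 393.0 and 452.3.

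The summed intensity of skeletal muscle markers overlapped between the tTA groups and both FVBN groups. Of 18 listed genes, 16 had a probe set, and their summed intensity was 1921 to 1989 in FVBN control and 1975 to 2055 in FVBN + Doxy. It was 1909 to 2248 in tTA and 1950 to 2108 in tTA + Doxy. Of the 8 bright enough to be tested, 0 passed in tTA against FVBN control (limma, adjusted p below 0.05), with 1 higher and 0 lower at an unadjusted p below 0.05. Under Doxy 0 passed in limma, with 0 higher and 2 lower unadjusted. Levels differed widely within the list. Myh1, a fast skeletal myosin and the dimmest of them, read 9.58 to 11.7 on the 19 arrays, under the floor of 14.37 that the fit used. The brightest were Pvalb, at 677.8 to 842.8, and Casq1, at 361.6 to 636.5, so the sum leaned on these genes. Tnnt1, slow skeletal troponin T, which stands in the thin filament list, was lower in tTA, as given below.

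Acta2, the smooth muscle alpha-actin, lay lower in tTA than in FVBN, with the opposite sign from Acta1. The probe set 93100_at read 452.3 and 393.0 in FVBN control and 449.8, 429.5, 386.5 and 292.7 in FVBN + Doxy, in the array order above. In tTA it read from 145.8 on array 7308 through a median of 164.6 to 206.6 on array 7288. The tTA + Doxy arrays read 220.9, 240.2, 372.6, 197.6 and 240.2. Every tTA array lay below every FVBN array, while array 7485 of tTA + Doxy, at 372.6, reached the FVBN + Doxy range. Between tTA and FVBN control, 12.7% of all tested probe sets did not overlap. The array with the lowest Acta1 in tTA, 7288, had the highest Acta2.

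The Acta2 log2 difference was -1.27 ± 0.20 between tTA and FVBN control (8 of 8 arrays lower). Between tTA + Doxy and FVBN + Doxy it was -0.66 ± 0.17 (5 of 5 arrays lower, with overlap). FVBN + Doxy and FVBN control differed by -0.07 ± 0.22, with 2 of 4 arrays on the lower side, and the value was 0.06 without array 8341 and 0.02 without 8177. Between tTA + Doxy and tTA it was 0.53 ± 0.14, with 5 of 5 arrays on the higher side of the tTA mean, and 0.39 without array 7485. The interaction was 0.60 ± 0.26. With the beta-actin ratio added as a covariate, the first of these values was -0.98 ± 0.24.

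**Figure D2:**
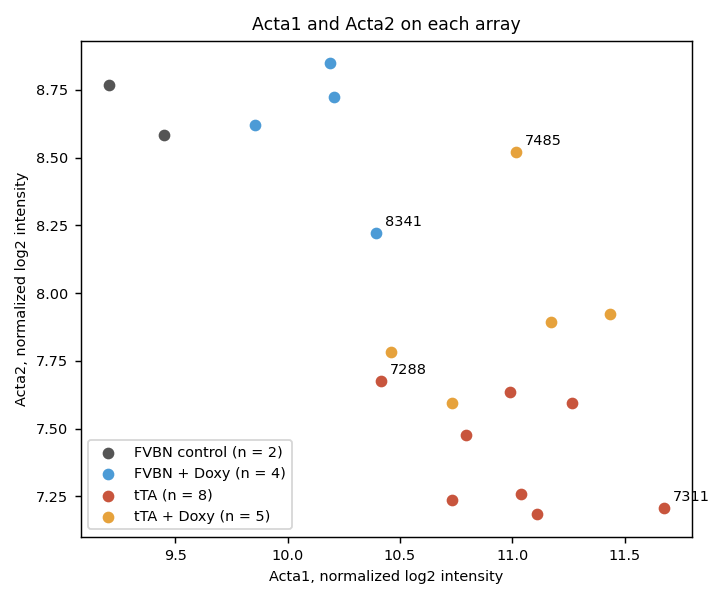
Normalized log2 intensity of Acta1 (x axis) and Acta2 (y axis) on each of the 19 arrays, coloured by group. FVBN control arrays lie at the upper left and tTA arrays at the lower right; array 7485 is the tTA + Doxy point among the high Acta2 values.

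Of the smooth muscle and pericyte markers, 1 of 12 tested passed in tTA against FVBN control, where 2.79% of all probe sets did, and 3 of 12 passed under Doxy, where 5.88% did. Of 16 listed genes, 13 had a probe set, and their summed intensity was 1661 to 1685 in FVBN control, 1482 to 1609 in FVBN + Doxy, 1448 to 1645 in tTA and 1470 to 1578 in tTA + Doxy. Across all 19 arrays, Tagln (transgelin) read 73.7 to 90.9, Cnn1 (calponin) 55.9 to 67.1 and Myh11 (smooth muscle myosin heavy chain) 36.4 to 51.1. In tTA against FVBN control, 0 rose in limma, with 2 higher and 3 lower at an unadjusted p below 0.05. The median was -0.08 against 0.01 over all tested probe sets. In that comparison 1 fell, Abcc9, a subunit of potassium channels, with -0.66 ± 0.14 (limma adjusted p = 0.0131). Under Doxy, Myl9, a smooth muscle regulatory light chain, rose by 0.53 and Smtn by 0.26, while Mcam fell by 0.28 (limma adjusted p = 1.76e-05, 0.0193 and 0.00496). In bulk ventricle, fewer cells of a type and less RNA per cell cannot be told apart. Fibroblast and myofibroblast markers had 1 gene that rose and 0 that fell of 14 tested in tTA against FVBN control, Loxl1 at 0.29. Under Doxy 0 rose and 1 fell, Tgfb1 at -0.18. The sum of their intensities ran from 4722 to 4819 in FVBN control and from 4070 to 5484 in tTA.

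Actc1, the main alpha-actin of the ventricle, did not pass in any comparison. The probe set 101029_f_at read 3697 and 4500 in FVBN control and 4207, 4033, 4317 and 3906 in FVBN + Doxy. In tTA it ran from 3042 on array 7288 through a median of 4145 to 4559 on array 7311, and in tTA + Doxy it read 3387, 4126, 4367, 4173 and 3864. The groups overlapped. Its log2 difference was 0.0045 ± 0.09 (95% interval -0.18 to 0.19) in tTA against FVBN control and -0.10 ± 0.08 (-0.26 to 0.06) under Doxy, with limma adjusted p = 0.984 and 0.472. The other probe set, 101028_i_at, gave 0.15 ± 0.08 (-0.03 to 0.32) and -0.01 ± 0.07 (-0.16 to 0.14), with limma adjusted p = 0.397 and 0.946. In tTA against FVBN control both probe sets leaned on the FVBN control arrays: without 8177 they gave -0.12 and -0.03, and without 8182 they gave 0.12 and 0.32. The suffix _f_at marks a set whose probes are not unique to 1 transcript of a family, so signal of another actin in 101029_f_at cannot be told apart. For 101028_i_at the suffix does not settle this, and the same limit is kept.

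Actg1, cytoplasmic gamma-actin, averaged lower in tTA without passing the test. The probe set 96573_at read 781.3 and 1089 in FVBN control and 1037, 872.7, 972.4 and 951.1 in FVBN + Doxy. In tTA it ran from 634.0 through a median of 705.5 to 826.2, and in tTA + Doxy it read 815.8, 818.6, 777.0, 931.6 and 821.0. The FVBN control arrays lay far apart, with 8177 inside the tTA range and 8182 above it. The log2 difference was -0.25 ± 0.11 (95% interval -0.48 to -0.03, 8 of 8 arrays lower, limma adjusted p = 0.236) in tTA against FVBN control. It was -0.23 ± 0.09 (-0.42 to -0.03, 5 of 5 arrays lower, limma adjusted p = 0.159) under Doxy, which shares no array with the first comparison. The first of them rested on which FVBN control array was used: without array 8177 it was -0.53 (limma adjusted p = 0.0301) and without 8182 it was 0.0245.

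Actb, cytoplasmic beta-actin, and Actg2, visceral smooth muscle gamma-actin, did not pass in any comparison. Actb 95705_s_at read 252.1 and 243.4 in FVBN control, 331.8, 321.8, 343.4 and 202.6 in FVBN + Doxy, and 203.6 to 342.8 in tTA with a median of 244.0. The tTA + Doxy arrays read 304.1, 237.7, 296.3, 310.8 and 241.5, and the groups overlapped. Array 8341 stood below the other FVBN + Doxy arrays. Its log2 difference was 0.03 ± 0.19 (-0.37 to 0.44) in tTA against FVBN control and 0.29 ± 0.21 (-0.15 to 0.73) in FVBN + Doxy against FVBN control, limma adjusted p = 0.949 and 0.573, and the latter was 0.47 without array 8341. The other Actb probe set, 101578_f_at, gave 0.44 ± 0.21 (-0.01 to 0.89, limma adjusted p = 0.432) in the latter comparison. Actg2 93102_f_at read 225.2 and 282.5, then 286.1, 259.2, 285.7 and 274.4, in the FVBN groups. It ran from 226.1 to 304.8 in tTA with a median of 266.2, and read 225.7, 282.9, 278.4, 261.9 and 256.3 in tTA + Doxy. Its log2 difference between tTA and FVBN control was 0.10 ± 0.09 (-0.10 to 0.30, limma adjusted p = 0.646), and the groups overlapped. It was -0.06 without array 8177 and 0.26 without 8182. Between tTA + Doxy and tTA the intervals of the 6 probe sets of Actc1, Actb, Actg1 and Actg2 lay within -0.19 and 0.42.

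**Figure D3:**
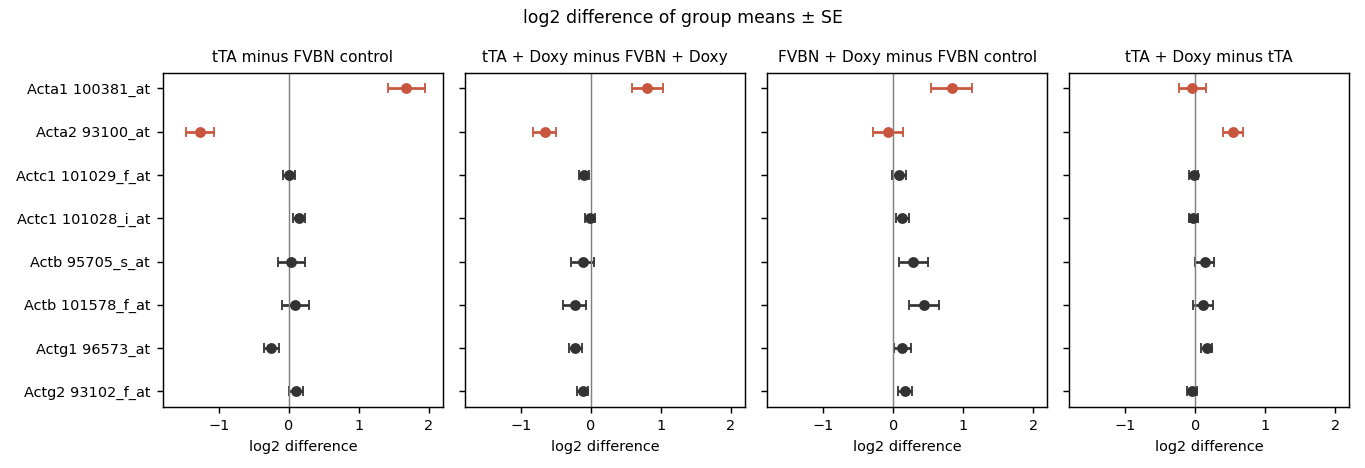
Log2 difference of group means (x axis) with its SE for each of the 8 actin probe sets, 1 panel per comparison. Acta1 (1.68) and Acta2 (-1.27) stand far from 0 in tTA against FVBN control, and the other probe sets lie between -0.25 and 0.15 there.

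Acta1 and Acta2 enter no count of passes here, since their differences chose the family. Of the 6 probe sets of Actc1, Actb, Actg1 and Actg2, 0 passed in tTA against FVBN control (limma, adjusted p below 0.05), where 2.79% of all 7453 tested probe sets did, and 0 passed under Doxy, where 5.88% did. At an unadjusted p below 0.05 there was 1 in each, that of Actg1. In FVBN + Doxy against FVBN control (0.0403% of all probe sets), tTA + Doxy against tTA (0.0671%) and the interaction (0.0134%), 0 of the 6 passed in limma and 0 had an unadjusted p below 0.05. Groups overlapped for all 6 in the 4 comparisons of groups, while 12.7% of all tested probe sets did not overlap in tTA against FVBN control and 9.73% under Doxy. The share without overlap was 23.4% for FVBN + Doxy against FVBN control, and 0.389% for tTA + Doxy against tTA. The median log2 difference over all 8 actin probe sets was 0.06 against 0.01 over all tested in tTA against FVBN control, and -0.12 against -0.01 under Doxy. The background counts leaned on single arrays. In tTA against FVBN control the 208 fell to 54 without FVBN control array 8177 and to 63 without 8182. The 438 under Doxy fell to 271, 240, 271 and 267 without arrays 8337, 8341, 7485 and 7488. The 3 in FVBN + Doxy against FVBN control became 1 without 8177 or 8338 and 7 without 9322. The 5 in tTA + Doxy against tTA became 25 without 7294 and 3 without 7399. When arrays were scaled to the same median, the split in tTA against FVBN control was 46 higher and 221 lower, against 72 and 136 with quantile normalization.

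The relation of Acta1 to Actc1 moved with the group. Set to the mean of FVBN control, the ratio was 0.999 and 1.001 on the FVBN control arrays. It was 1.73, 1.78, 1.32 and 1.99 on the FVBN + Doxy arrays. In tTA it ran from 2.52 on array 9322 through 3.18 to 4.52 on array 7311. The tTA + Doxy arrays gave 2.60, 4.165, 3.07, 2.56 and 3.665. Every array of both tTA groups lay above every FVBN + Doxy array, and these above both FVBN control arrays. Among single probe sets, 23.4% of all tested did not overlap between FVBN + Doxy and FVBN control, and 9.73% did not under Doxy. The mean log2 ratio was 0.75 ± 0.25 (SD) in FVBN + Doxy, 1.67 ± 0.30 in tTA and 1.66 ± 0.31 in tTA + Doxy, against FVBN control. With the other Actc1 probe set these means were 0.70, 1.53 and 1.52.

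The relation of Acta1 to Acta2 spread further between groups. It was 0.861 and 1.16 on the FVBN control arrays. With Doxy it was 1.61, 1.775, 1.496 and 2.87. In tTA it ran from 4.25 on array 7288 through 7.64 to 14.1 on array 7311. Array 7311 also held the highest Acta1. The tTA + Doxy arrays gave 4.08, 7.25, 3.59, 5.61 and 6.18, all above FVBN + Doxy. Among single probe sets, 9.73% of all tested did not overlap in that comparison. Both genes of this ratio chose the family, with opposite signs, so its spread between groups is only described. In mean log2 ratio this was 0.90 ± 0.42 (SD) in FVBN + Doxy, 2.94 ± 0.51 in tTA and 2.37 ± 0.42 in tTA + Doxy. The tTA + Doxy mean was 0.57 below that of tTA, with overlap.

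**Figure D4:**
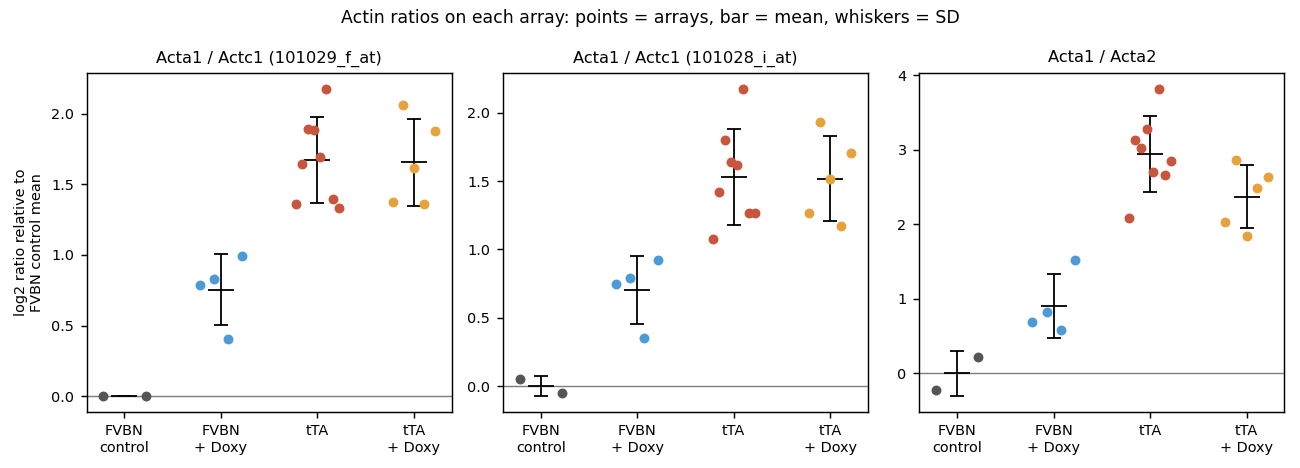
Log2 ratio of Acta1 to each Actc1 probe set and to Acta2 (y axis, 0 at the FVBN control mean) by group, with points for arrays, bars for means and whiskers for SD. The Acta1 to Acta2 ratio is at 2.94 in tTA, 2.37 in tTA + Doxy and 0.90 in FVBN + Doxy.

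Within the 8 tTA arrays none of 11 pairings passed after adjustment (exact permutation tests, two-sided). Acta1 went with Actg2 at r = 0.85 (exact permutation p = 0.0149, adjusted p = 0.164, Spearman rho 0.79 with exact permutation p = 0.0279), and r was 0.32 without the 2 arrays farthest from the Actg2 median, 7288 and 7311. By that removal the relation rested on those arrays, which also hold the ends of the Acta1 range; with any 1 array left out r was 0.74 to 0.91. Acta1 against Actc1 gave r = 0.68 (exact permutation p = 0.0722, adjusted p = 0.26, rho 0.37), and r was 0.37 without array 7288. Acta1 against Acta2 gave r = -0.45 (exact permutation p = 0.282, adjusted p = 0.434, rho -0.50), and r was -0.18 without array 7288. The Acta2 level and the 3' to 5' control ratio gave r = 0.63 (exact permutation p = 0.0945, adjusted p = 0.26), and Acta1 and that ratio r = -0.53 (exact permutation p = 0.175, adjusted p = 0.386). As a description over the 19 arrays after subtraction of group means, which share arrays and overall brightness, Acta1 correlated at 0.73 with Actg2, 0.61 and 0.43 with the Actc1 probe sets 101029_f_at and 101028_i_at, and -0.13 with Acta2. Actg2 and Actc1 101029_f_at correlated at 0.86. Both are family probe sets with the _f_at suffix. The Actc1 probe sets correlated at 0.82 and the Actb probe sets at 0.83.

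The beta-actin control probe sets of the array, which read the 3' end, the middle and the 5' end of the Actb transcript, were kept apart from the members. The 3' probe set read 2169 and 2814 in FVBN control and 2542 to 2821 in FVBN + Doxy. It read 1978 to 2700 in tTA and 2267 to 2923 in tTA + Doxy, and all groups overlapped. The 5' probe set read 1592 to 2291 in tTA against 1488 and 1916 in FVBN control, and the middle one 1117 to 1593 against 1261 and 1706. The matching sense-strand probe sets were dim: over the 19 arrays the 3' one read 33.89 to 41.51, the middle one 23.01 to 28.37 and the 5' one 64.24 to 81.59. The log2 ratio of 3' to 5' was 0.55 ± 0.01 (SD) in FVBN control, 0.51 ± 0.08 in FVBN + Doxy, 0.32 ± 0.11 in tTA and 0.36 ± 0.06 in tTA + Doxy. On FVBN + Doxy array 8341 it was 0.41, within the range of both tTA groups. The ratio of 3' to middle was 0.75 ± 0.04, 0.73 ± 0.04, 0.79 ± 0.04 and 0.76 ± 0.11, overlapping among the groups. Acta1 and the 5' control correlated at 0.74 over the 19 arrays after subtraction of group means, against 0.54 with the 3' and 0.46 with the middle control. Both Actb probe sets ran against these controls of the same transcript. With the 3', 5' and middle control, 95705_s_at gave -0.25, -0.32 and -0.37, and 101578_f_at gave -0.37, -0.48 and -0.46. These correlations carry no test, and they set normalized member values beside control values that were not normalized. The part of the 3' to 5' ratio in the Acta1 and Acta2 differences was not tested.

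**Figure D5:**
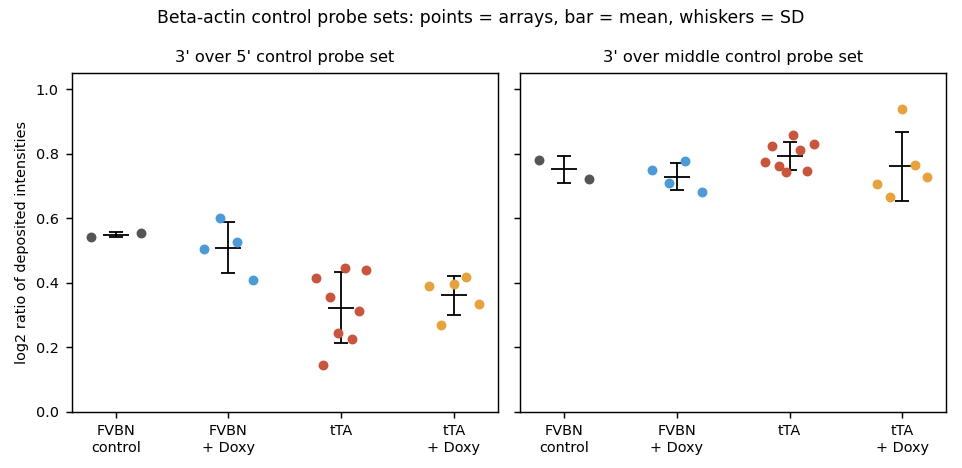
Log2 ratio of the 3' over the 5' (left) and to the middle (right) beta-actin control probe set by group, from deposited intensities. Points are arrays, bars are means and whiskers are SD; the 3' to 5' ratio is 0.32 in tTA and 0.36 in tTA + Doxy, against 0.55 and 0.51 in the FVBN groups.

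Most tested genes of the actin partner and cell marker lists did not pass in either comparison of genotypes. The 11 lists held 229 genes, of which 147 were tested, and these were chosen with earlier results known. In tTA against FVBN control 5 rose and 5 fell, 6.8% against 2.79% over all probe sets, and under Doxy 10 rose and 5 fell, 10.2% against 5.88%. In FVBN + Doxy against FVBN control 0 of 147 passed in limma, with 9 higher and 8 lower at an unadjusted p below 0.05. In tTA + Doxy against tTA 1 rose, Myl9 at 0.29 ± 0.05 (limma adjusted p = 0.0139), and 0 passed in the interaction, where 11 were higher and 12 lower at an unadjusted p below 0.05. Nothing particular to the lists is read from these shares.

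Of 9 thin filament partners tested, 1 rose and 1 fell in each comparison of genotypes. Tpm2, beta-tropomyosin, lies along the actin filament, and it rose by 1.73 ± 0.16 in tTA (8 of 8 arrays, limma adjusted p = 8.497e-06) and by 1.29 ± 0.14 under Doxy (5 of 5, 4.681e-05). Tnnt1, slow skeletal troponin T, was at -0.48 ± 0.09 (adjusted p = 0.00212) and -0.44 ± 0.07 (0.000879) in limma. Of 26 cross-linking and anchoring genes, 1 rose in tTA against FVBN control, the Z-disc protein Pdlim1 at 0.55 ± 0.09 (limma adjusted p = 0.000463). Under Doxy 3 rose, Pdlim1 at 0.51, Actn1 (alpha-actinin) at 0.27 and Pdlim7 at 0.25, and 0 fell. Of 33 assembly and turnover genes, Cttn (cortactin) rose by 0.26 and Fhod3, a sarcomere formin, fell by 0.29 in tTA, while under Doxy Arpc2, a subunit of the Arp2/3 complex, rose by 0.23 and Cttn at 0.22. Of 22 genes of the SRF pathway and its targets, Mcl1 fell by 0.29 in tTA and Fhl2, a sarcomeric LIM protein, fell by 0.33 under Doxy; 0 rose. The list's medians were -0.02 and -0.06, against 0.01 and -0.01 over all tested probe sets.

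Among 13 tested subunits of the actin folding chaperones TRiC and prefoldin, 0 passed in tTA against FVBN control in limma, with 1 higher and 0 lower at an unadjusted p below 0.05. Under Doxy 0 passed too, with 6 higher and 0 lower unadjusted, and their median was 0.10. The 3 tested actin-related proteins gave 0 in both, with 0 at an unadjusted p below 0.05 in limma. Of 11 cardiomyocyte markers tested, Ryr2, the calcium release channel, fell, with -0.82 ± 0.10 in tTA and -0.58 ± 0.09 under Doxy, and Mybpc3, myosin binding protein C, rose by 0.31 under Doxy. Of 4 atrial markers, Clu, clusterin, rose by 1.15 ± 0.09 and 1.08 ± 0.08. The other 3 did not pass in either comparison, and the list's medians were 0.04 and -0.02. The summed intensity of the 7 atrial genes was 832.5 to 920.5 in FVBN control and 1182 to 1335 in tTA. That sum leaned on Clu, which alone read 328.0 to 889.8 on the 19 arrays. The part of Clu in the actin differences was not tested. The defining atrial light chain Myl7 read 30.6 to 52.7 on the 19 arrays.

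The genes whose log2 values followed Acta1 most closely over the 19 arrays (Pearson r, after group means in brackets) were 1190005I06Rik at 0.88 (0.62), Gpx3 at 0.88 (0.74), Pdlim1 at 0.88 (0.61), Clu at 0.86 (0.55) and Lgals1 at 0.86 (0.64). For Acta2 they were Csrp2 at 0.90 (0.50), Mt1 at 0.89 (0.52), Corin at 0.89 (0.43), Ablim1 at 0.85 (0.29) and H1f2 at 0.85 (0.27). Gpx3 encodes extracellular glutathione peroxidase and Lgals1 galectin-1. Csrp2 encodes a LIM domain protein, Mt1 a metallothionein and Corin the protease that cuts the natriuretic peptide precursor.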

How the data were processed

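Mouse ventricle RNA was read on Affymetrix arrays, and the deposited table holds linear intensity values for 12488 probe sets on 20 arrays. What summary method, background correction or normalization lay behind the authors' intensity values was not given in the sources used here. From these, 66 control probe sets were set aside. Quantile normalization of the other 12422 used limma 3.58.1 under R 4.3.3. Values under the 10th percentile, 14.37, were set to it before log2. The brightest 60%, 7453 probe sets, entered 1 limma fit of 4 group means over 19 arrays, with trend and robust moderation and Benjamini-Hochberg adjustment within each comparison. The fit was also run on simulated data. Errors there were drawn independently for each probe set, with no shift shared across an array, so that run does not bear on such shifts. GEO's platform annotation linked 10833 probe sets to 1 gene. Relations are log2 differences between probe sets on 1 array.

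The members, lists and tests were chosen with earlier results of these data known. The text names all actin and beta-actin control probe sets, up to 3 passing genes per list, direction and comparison, and the 5 genes most like Acta1 and Acta2. An array counts toward a direction if its value is past the mean of the other group. Intervals are 95%. Promoter sequences came from RefSeq. Permutation tests used scipy 1.17.1 and plots matplotlib 3.10.9 in Python 3.11.15. Alternatives covered normalization, floor, filter, array weights, moderation, arrays used, a covariate, and each array left out. The number of arrays limits the precision. One array without a group entered no comparison.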

Additional observations from a re-analysis of the deposited data

Results flagged for a closer look

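Of 57 checks of an actin probe set, control probe set or ratio in a group of 4 or more arrays, 3 gave an array far from the others, and chance flags about 1 in 20 such groups. Actc1 101028_i_at read 11.31 (normalized log2) on tTA + Doxy array 7399, against 11.58 to 11.68 on the other 4 arrays of its group. Actb 95705_s_at read 7.68 on FVBN + Doxy array 8341, against 8.33 to 8.45 on the others. The sense-strand 5' beta-actin control read 6.01 on tTA array 7288, against 6.24 to 6.35 on the others.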

How the results depend on the processing

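Of 298 alternative values of the Acta1 and Acta2 differences, 296 stayed within 1 SD of the main ones. None of those beyond 2 SE changed sign. The count of 296 says little, since many settings could not move these values. Floors, filters and moderation cannot change the difference of probe sets this bright. Leaving out arrays of groups not compared could hardly do so. The SD is the residual spread among arrays, 0.34 for Acta1 and 0.26 for Acta2. Under Doxy, Acta1 fell from 0.80 to 0.49 once the beta-actin ratio entered the fit as covariate, and still counted as within 1 SD. That covariate left tTA against FVBN control at 1.19 for Acta1 and -0.98 for Acta2. Without the covariate and with each array left out in turn, that comparison ran from 1.55 to 1.80 for Acta1. For Acta2 it ran from -1.36 to -1.17. Of 894 values of Actc1, Actb, Actg1 and Actg2, 2 moved past the threshold, both of Actg1: -0.23 (limma adjusted p = 0.0484) in tTA + Doxy against FVBN + Doxy with only the arrays compared, and -0.53 (0.0301) in tTA against FVBN control without 8177, where the values with an array left out ran from -0.53 to 0.0245. Of 121 correlations within tTA, Acta1 with Actg2 passed at r = 0.92 (exact permutation, adjusted p = 0.0382) when scaled to the same median, and Acta2 with Actc1, from -0.74 to -0.16 with an array left out, passed at -0.74 without array 7308 (adjusted p = 0.0262). All 150 values of the relations stayed within 1 SD, but the beta-actin covariate, which moved both Acta1 and Acta2, was not applied to them. Values that had not passed, or lay within 2 SE of 0, changed sign in 7 of the Acta1 and Acta2 values, 33 of those of the other actins, 10 of the relations and 3 of the correlations. Counts over all probe sets moved more. From 208, tTA against FVBN control gave 26 with the covariate, and 54 to 241 with an array left out. From 438, tTA + Doxy against FVBN + Doxy gave 282 with all probe sets tested, 704 with array weights, and 240 to 493. From 3, FVBN + Doxy against FVBN control gave 1 with all probe sets, 5 with only the arrays compared, 8 without 9310 and 9322, and 1 to 7. From 5, tTA + Doxy against tTA gave 10 when scaled to the same median, 11 unnormalized, 2 with all probe sets, 11 with array weights, 3 without 9310 and 9322, and 3 to 25. From 1, the interaction gave 6 when scaled to the same median, 6 unnormalized, 0 with all probe sets (1442 at an unadjusted p below 0.05 in limma), 5 with the brightest 40%, 4 without 9310 and 9322, and 0 to 4, with 0 without 8177, 3 without 8340 or 9322, 4 without 7311 and 2 without 7424. The cause was not tested. Leaving out an FVBN control array leaves 1, assumed to vary like the others. No paired analysis was possible because the array numbers are not shared between groups.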

Other observations

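The array titled only for cardiac tTA expression, which no label places in a group, read 762.1 for Acta1 and 271.5 for Acta2. Its Actc1 probe sets read 3437 and 2548, its Actb probe sets 269.0 and 152.9, Actg1 746.2 and Actg2 220.1. The 3', middle and 5' beta-actin controls read 2070, 1185 and 1435.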
